A study of Homo sapiens with 4 samples.

Results

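Human protein-coding genes whose symbol starts with MRPL or MRPS and a digit, here called MRP genes, encode most proteins of the mitochondrial ribosome. Of 77 such genes in RefSeq, 75 carried at least 1 of the 154 peaks assigned to them, out of 8478 genes and 18993 peaks in the whole list. The choice was made by symbol and not by a value of the experiment, but with earlier results of these data known. MRPL42 and MRPS31 had no peak on either strand, and pseudogenes were left out. In lists described below, 68 of 86 cytosolic ribosomal protein genes and 72 of 83 respiratory chain genes had a named peak. The share of all protein-coding genes with a peak is not given here. Counts of genes with a peak, for MRP genes and for the lists below, are thus not shown to be particular to them. The peaks came from RNA immunoprecipitation of PRMT5, an arginine methyltransferase, in the leukemic human T cell line Jurkat. All libraries came from cells stimulated with the lectin PHA for 48 hours and crosslinked with UV light, which the sample labels give as 264 nm and 400 mJ. RNA recovered by an immunoprecipitation that the series design describes as Flag (2 PRMT5 RIP libraries) was set beside the input RNA (2 libraries). Whether a tagged PRMT5 was expressed is not stated in the labels. No library from a control antibody or from control cells was analysed here. The deposited list holds 1 pooled value per group at each peak, so that no spread between libraries can be given and no test was made for any value.

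The mitochondrial ribosome translates the few messenger RNAs of the mitochondrial genome, all of which encode membrane subunits of the respiratory chain and ATP synthase. Its proteins are encoded in the nucleus, translated in the cytosol and imported. They form a large subunit (MRPL genes, with a few exceptions), which holds the peptidyl transferase center and the exit tunnel, and a small subunit (mostly MRPS genes), which decodes the message. Some of them descend from bacterial ribosomal proteins and others were added during the evolution of mitochondria.

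A peak is described by its RPM (reads scaled to the size of the library) in RIP and in input, and by the log2 ratio of these RPM values. For a gene, the RPM of its peaks was summed before the ratio was taken. Summed RPM grows with the length and the number of peaks and is not a level per length, so where genes are ordered or grouped by it, it stands for the signal in the list and not for expression. In bulk RNA, fewer cells with a transcript and less of it per cell cannot be told apart. The list holds regions kept by the authors' peak caller for their signal in PRMT5 RIP, so values above input belong to the way in which the list was made, and differences among members are the measurement here. The T cell origin of the RNA could be checked from markers: 9 of 9 T cell genes, CD3D and LCK among them, had a peak, and 0 of 8 markers of B cells, monocytes, erythroid, liver, epithelial and stromal cells had one.

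The first transcribed bases of some MRP genes are shown because the 5′-most peaks begin on them. The 5′-most peak began within 50 nt of the annotated start in 58 of 75 genes, and exactly at it in 25. The same count over all genes is not given here, so this position is not shown to be particular to MRP genes. How the caller sets the edges of peaks is not known here either. RefSeq windows from 250 bases before to 50 bases after the start (GRCh38.p14) were matched for 69 of the 77 genes. On the gene's own strand, the letters ATGGCG, an ATG followed by GCG, stood within the first 50 bases of 27 of 69 MRP genes (39.1%), against 5.42% of the 15842 protein-coding genes with a window. The windows of all genes include genes without a peak, here and for the other motifs below, whereas nearly all MRP genes had one. The motif was chosen after the sequences had been seen. In the lines that follow it is in capitals, and each line is 30 bases read 5′ to 3′ on the gene's strand.
MRPS34: cgcggacccgccATGGCGcggaagaaggtg
MRPL54: ccgcaatacgtcATGGCGaccaaacgcctt
MRPL44: ctctcgtgcaATGGCGtccgggctggtaag
MRPL38: ggagggaagATGGCGgcgccctggtggcga
MRPS15: tcctgggccagcATGGCGgcgcccatgtaa
MRPS18A: aggtttttgaagATGGCGgccctcaaggct
MRPS22: gcttctgataatcATGGCGcccctcggaac

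In GRCh38 the stretch of MRPS34 is chr16:1773102-1773131 on the minus strand, that of MRPL54 chr19:3762689-3762718 on the plus strand and that of MRPL44 chr2:223957463-223957492 on the plus strand. MRPL38 is shown at chr17:75904855-75904884, MRPS15 at chr1:36464340-36464369 and MRPS18A at chr6:43687762-43687791, all on the minus strand, and MRPS22 at chr3:139344014-139344043 on the plus strand. MRPS34, MRPL54 and MRPL44 are among the MRP genes with the highest ratios, MRPS18A and MRPS22 among those with the lowest, and MRPS15 has one of the largest input values, so the same letters stood at both ends of the order. In 16 of the 26 genes that had these letters and a peak, the whole 30-base stretch lay inside a peak, and it lay outside every peak in 3 (MRPS9, MRPS18B and MRPS22). Genes with ATGGCG in the first 50 bases had a median log2 ratio of summed RPM of 0.74, and the 41 genes with a window without it had 0.97.

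Across the window, mostly before the start, CCGGAAG, a core that transcription factors of the ETS family are known to bind, was found on either strand of the window in 29 of 69 MRP genes (42%) and in 14.2% of all windows. It is shown for MRPS34, MRPS26, MRPL54 and MRPS18A, again genes from both ends of the order, in capitals and as read on the gene's strand, where CTTCCGG is the same motif on the other strand.
MRPS34: acctcttcctcgCTTCCGGccgcgaccgaa
MRPS26: ttccccgcgccgCTTCCGGggcacggtggc
MRPL54: ggccactgacgtCTTCCGGaaacgtgcact
MRPS18A: gggcgctacgttCCGGAAGcggaaatggac

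These stretches are chr16:1773188-1773217 (minus strand), chr20:3046003-3046032 (plus strand), chr19:3762649-3762678 (plus strand) and chr6:43687805-43687834 (minus strand). Of 28 genes with this motif and a peak, the 30 bases lay outside every peak in 17 and wholly inside one in 1, MRPL51. The median log2 ratio of summed RPM was 0.81 in the 28 genes with CCGGAAG and 0.78 in the 39 without. AAGATGGCG, which resembles sites of the factor YY1 and overlaps the ATGGCG motif, was found on either strand in 18.8% of MRP windows and 2.74% of all windows. The TATA sequence TATAAA was found in 2.9% and 9.63%. A match of letters is a description and not a bound site.

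Across the 154 peaks, the median RPM was 8.53 in the PRMT5 RIP and 4.91 in the input, and the median over all 18993 peaks was 1.95 and 0.83. MRP peaks thus lay in the better covered part of the list. Their median log2 ratio was 0.76, with quartiles of 0.39 and 1.27, against 1.10 over all peaks. PRMT5 RIP reached at least 2 times input in 58 MRP peaks (37.7%), where 56.6% of all peaks did. At 4 times input the counts were 13 MRP peaks (8.44%) and 17% of all peaks. In 8 MRP peaks (5.19%) RIP fell short of input, where 3.84% of all peaks did. The peak caller gave its own log2 fold change, on a scale that is not stated, with a median of 1.56 over MRP peaks and 1.95 over all. All 150 MRP peaks with an FDR from the caller were at or below 0.01, as were 99% of the 18599 peaks with an FDR in the list. With a pseudocount of 1 RPM in place of 0.01 the order turned, to a median of 0.51 for MRP peaks and 0.46 for all.

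Summed per gene, the ratio was above 0 in all 75 MRP genes, and RIP was lower than input in only 188 of all 8478 genes. The median log2 ratio was 0.78, with quartiles of 0.43 and 1.26, and the median over all 8478 genes was 1.20. At least 2 times input was reached by 29 of 75 MRP genes (38.7%), against 62.7% of all genes with a peak. Input level moved with this difference, and its part in it was not tested. The summed input of MRP genes ran from 0.04 to 97.5 RPM with a median of 17.0 RPM, above the median of 2.28 RPM over all genes, and across all genes the ratio fell with summed input (Spearman's rho -0.55, 8478 genes, which are not independent replicates and share the input value on both axes). Across the 75 MRP genes this rho was -0.084.

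Most MRP genes, 53 of 75, had a summed input of 10 to 100 RPM. In that range 20 of them (37.7%) reached 2 times input, beside 33.5% of the 1835 genes in that range, and the medians were 0.78 and 0.80. From 1 to 10 RPM, 4 of 16 MRP genes (25%) did so, beside 61.3% of 3209 genes, with medians of 0.71 and 1.14. Over all genes with at least 1 RPM the shares were 24 of 69 MRP genes (34.8%) and 49.5%. With a pseudocount of 1 RPM, the median of the summed ratio was 0.66 for MRP genes and 0.75 for all genes.

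**Figure D1:**
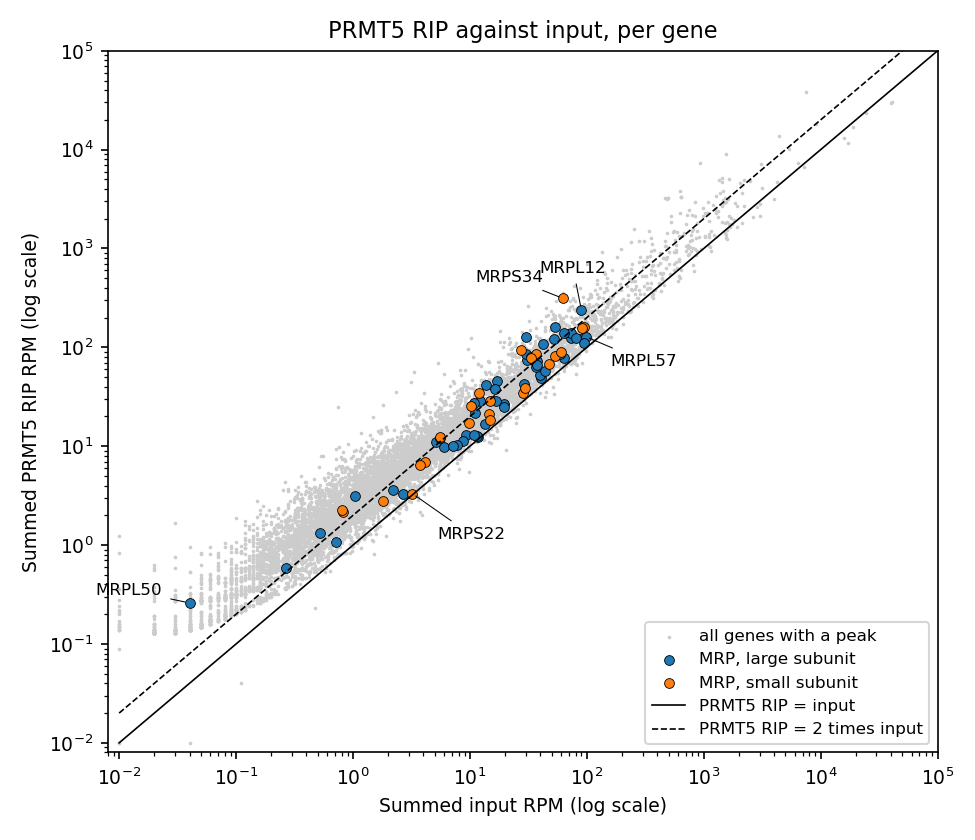
Summed PRMT5 RIP RPM (vertical, log scale) against summed input RPM (horizontal, log scale) for all 8478 genes with a peak (grey; values under 0.01 are drawn at 0.01), with the 50 large subunit MRP genes in blue and the 25 small subunit MRP genes in orange. All MRP genes lie above the line of equal values, MRPS34 is farthest above the dashed line of 2 times input among those with at least 1 RPM, and MRPS22 lies almost on the line of equal values.

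The highest ratios among MRP genes with at least 1 RPM in input were those of 4 genes with a single peak that spanned nearly the whole short gene. MRPS34, a small subunit protein without a bacterial homolog, had the largest RPM of all MRP peaks, with 313 RPM in RIP and 62.3 RPM in input, a log2 ratio of 2.33. The peak covers 98.4% of the gene and shares 341 nt with a peak of EME2 on the opposite strand, which had 125 RPM and 18.3 RPM, a ratio of 2.77. MRPL41 had 126 RPM and 30.4 RPM (2.05) in a peak over 99% of its 677 nt. The library kit marks strand, but how strand entered the counting is not given in the sources used here, so the reads of MRPS34 and EME2 cannot be told apart where they overlap, whereas MRPL41 had no such overlap.

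MRPS26, a small subunit protein without a bacterial relative, followed with 93.8 RPM in RIP and 27.3 RPM in input (log2 ratio 1.78). MRPL54, a mitochondria-specific protein of the large subunit, had 41.7 RPM and 13.7 RPM (1.61). Neither overlapped a peak on the other strand. The top of the order was therefore held by mitochondria-specific proteins on short genes, of 1240 nt for MRPS34, 2199 nt for MRPS26 and 4884 nt for MRPL54.

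MRPL4, a bacterial-type protein of the large subunit, had 4 peaks that summed to 160 RPM in RIP and 53.5 RPM in input (1.58), and its peaks of 8.54 RPM over 1.21 RPM and of 33.1 RPM over 8.20 RPM were each above 4 times input. All 4 lay over peaks of unnamed identifiers on the opposite strand, whose own ratios ran from 1.68 to 2.87. MRPL34 and MRPL14, both bacterial-type, had ratios of 1.52 (86.0 RPM over 29.9 RPM, 3 peaks) and 1.41 (45.3 RPM over 17.0 RPM, 1 peak), and every peak of these genes also shared bases with the opposite strand. MRPL44, whose fold is related to RNase III enzymes, had 3.13 RPM over 1.05 RPM (1.57), and MRPS23 had 34.6 RPM over 12.1 RPM (1.52), both without an overlap. MRPL12, the stalk protein that contacts translation factors, had 238 RPM over 89.8 RPM (1.41), in a peak that listed a further identifier.

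At the other end of the order, PRMT5 RIP and input were nearly equal. MRPS22, a small subunit protein whose gene is mutated in some mitochondrial diseases, had 3.32 RPM in RIP and 3.22 RPM in input over 2 peaks, a log2 ratio of 0.044. MRPL13, a bacterial-type protein, had 12.4 RPM and 11.7 RPM (0.087). MRPL22, which lines the exit tunnel, had 12.6 RPM and 11.5 RPM (0.12). Their largest peaks lay close to equal values, and the second peak of MRPS22 and the last of MRPL22 lay below input.

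MRPL47 (12.9 RPM over 10.9 RPM, 0.24), MRPL16 near the catalytic center (48.6 RPM over 40.7 RPM, 0.26) and MRPL45, which tethers the ribosome to the inner membrane (3.29 RPM over 2.69 RPM, 0.29), followed. MRPL17 had 78.9 RPM over 64.2 RPM (0.30) and MRPS6 18.5 RPM over 14.9 RPM (0.31). All are bacterial-type except MRPL45, and none overlapped the other strand.

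The paralogs MRPS18A, MRPS18B and MRPS18C, which descend from one bacterial gene, did not share a ratio. MRPS18A, whose protein sits in the large subunit, had 111 RPM over 93.9 RPM in 1 peak over 99.4% of the gene (0.24), overlapping RSPH9 on the opposite strand at 46.1 RPM over 38.6 RPM (0.25). MRPS18B had 34.2 RPM over 28.6 RPM (0.26) in 2 peaks without an overlap, of which the first was below input. MRPS18C had 17.2 RPM over 9.90 RPM (0.79), in a peak that touches peaks of ABRAXAS1 at 0.56 RPM and 3.61 RPM. MRPS18A and MRPS18B thus lay among the 10 lowest MRP genes and MRPS18C at the middle of the order.

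The 5 MRP genes with the largest input values were not the most enriched. MRPL57 had 128 RPM in RIP over 97.5 RPM in input (0.40) in a peak over 24.5% of the gene. MRPS15 had 159 RPM over 94.5 RPM (0.75), and MRPL20 124 RPM over 93.1 RPM (0.41). MRPS24 had 157 RPM over 91.0 RPM (0.78), nearly all of it in 1 peak of 14879 nt that lists 3 identifiers and begins far upstream of the annotated start. That peak has no value from the caller, and without it MRPS24 has no peak of a single identifier, so its value cannot be told apart from that of a neighbour. MRPS18A, described above, completes the group.

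**Figure D2:**
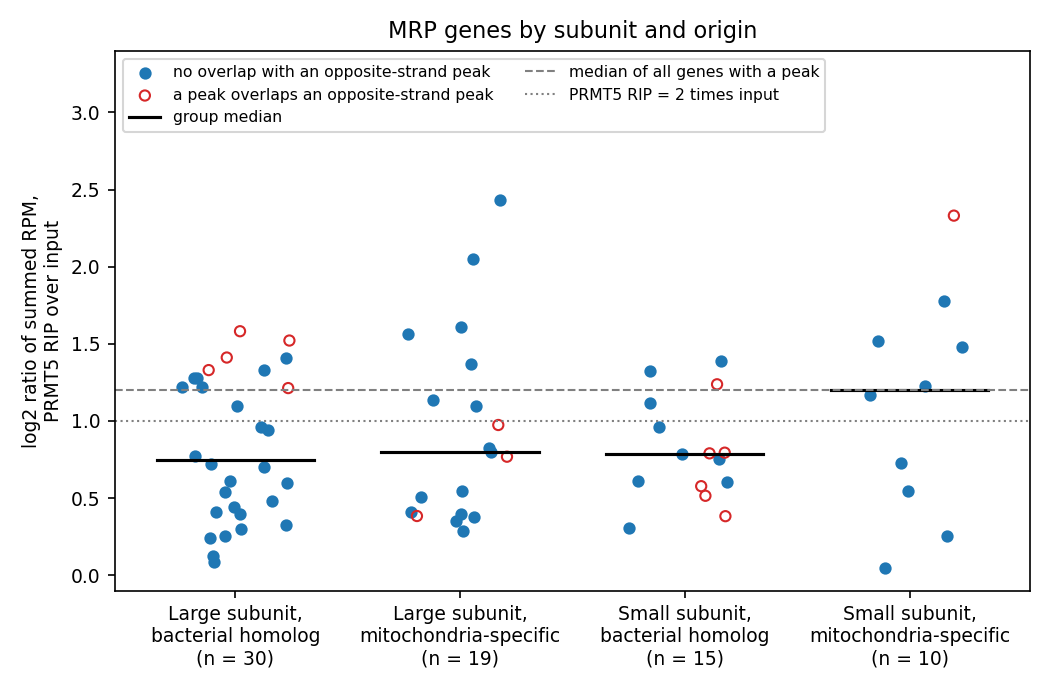
Log2 ratio of summed RPM, PRMT5 RIP over input (vertical), for MRP genes by subunit and by bacterial or mitochondria-specific origin, 1 point per gene, with open red circles for genes in which a peak overlaps a peak on the opposite strand. MRPS18A, placed in neither origin class, is not drawn. The medians (black bars) are 0.75, 0.80, 0.78 and 1.20 from left to right, and the groups overlap over nearly their whole range.

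By subunit, MRP genes did not separate. The 50 large subunit genes had a median log2 ratio of 0.77, with 19 of them (38%) at 2 times input or more, and the 25 small subunit genes had 0.79, with 10 (40%). The difference of the medians, large minus small, was -0.020. By origin, the 45 genes with a bacterial homolog had a median of 0.77, with 16 (35.6%) at 2 times input, and the 29 mitochondria-specific genes, MRPS18B counted among them, had 0.82, with 13 (44.8%). This difference, bacterial minus mitochondria-specific, was -0.049, and it was -0.30 once peaks that overlap the opposite strand were left out. Over the 4 classes the medians of 3 lay between 0.75 and 0.80. The 10 mitochondria-specific genes of the small subunit stood at 1.20, with 6 of 10 at 2 times input. All genes with a peak also had a median of 1.20, with 62.7% at 2 times input. The class of 10 held MRPS34, MRPS26, MRPS23 and MRPS27 above 1.4 and also MRPS22, the lowest of all. MRPS27 rested on 0.80 RPM in input, and the peak of MRPS34 overlaps one on the opposite strand. MRPS25, another of the 6 at 2 times input, stood at 1.23. Most of its RPM lay in a peak of 34398 nt that lists 3 identifiers and begins far upstream of the annotated start. That peak has no value from the caller and overlaps the other peak of MRPS25 by 225 nt. By its peak of a single identifier alone MRPS25 stood at 0.97, short of 2 times input.

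Among MRP genes the median log2 ratio was higher in short genes, at 1.09 in the 22 under 5000 nt, with 11 (50%) at 2 times input. It was 0.74 in the 30 genes of 5000 to 15000 nt and 0.70 in the 23 longer genes. All genes with a peak, of any length, had a median of 1.20, with 62.7% at 2 times input. Median summed input also differed among these length classes, at 36.9, 19.4 and 10.9 RPM from short to long, and its part was not tested. Spearman's rho between gene length and the ratio was -0.20 across the 75 genes, a weak relation given as a description. Genes with 1 peak had a median of 1.10 (31 genes) and genes with more had 0.69 (44 genes), and since the ratio is taken over summed peaks these groups differ in what is averaged.

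Peak widths ranged from 25 nt, the width of 15 MRP peaks, to 34398 nt, with a median of 726 nt, against 275 nt over all peaks. A share of 47.4% of MRP peaks was wider than 1000 nt (32.5% of all peaks), and 25 genes were covered over at least 80% of their length. Widths and coverage run from the first to the last base of a peak, so wide peaks can span introns. Whether signal lay in introns was not read. The other end of the gene, taken as the edge of the gene span, was reached less closely than the start. The start came from the RefSeq window where there was one and can lie inside the span, so these distances are not measured alike. The distance to the gene end over all genes is not given here. The 3′ end of the last peak lay a median of 675 nt short of the annotated gene end, and within 50 nt of it in 13 genes.

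Within genes, the first peak tended to exceed the last one, as it did throughout the list. Of 44 MRP genes with at least 2 peaks, 32 (72.7%) had a higher log2 RPM ratio in the 5′-most than in the 3′-most peak, beside 69.5% of the 4657 genes of the whole list. The medians were 0.93 at the 5′-most and 0.52 at the 3′-most peak, and 1.39 and 0.96 over all such genes. Both ends were thus lower in MRP genes, with a step of like size. The 60 MRP peaks that began within 50 nt of the start had a median log2 ratio of 0.96, with 28 (46.7%) at 2 times input. The other 94 had 0.57, with 30 (31.9%). Over all peaks, at any position, the median was 1.10 and 56.6% reached 2 times input.

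The steepest fall was in MRPL38, a mitochondria-specific protein of the large subunit. Its 50-nt peak at the start, which holds most of the MRPL38 sequence printed above, had 3.92 RPM in RIP and 0.42 RPM in input, a log2 ratio of 3.19 and the highest of all MRP peaks. The main peak downstream had 51.6 RPM and 41.3 RPM (0.32), and the 25-nt peak near the 3′ end had 1.84 RPM and 2.21 RPM (-0.26). Summed over the gene the ratio was 0.38, so the start peak, with 3.92 RPM of the 57.4 RPM in RIP, hardly entered the gene value.

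MRPL3, a bacterial-type protein near the catalytic center, had 15.4 RPM over 2.87 RPM at its start (2.42) and 0.76, 0.27 and 0.44 at the 3 peaks that follow. The start peak shares 75 nt with a peak of an unnamed identifier on the opposite strand, at 2.74 RPM over 0.44 RPM (2.61). MRPL51, a mitochondria-specific protein, had 38.0 RPM over 7.99 RPM (2.25) in a peak that begins upstream of the annotated start and 70.6 RPM over 34.1 RPM (1.05) in the second, neither of them over a peak of the other strand. MRPS7, a bacterial-type protein of the small subunit, fell from 1.68 in a peak over GGA3 on the other strand to values of 0.55, 0.028 and 0.82.

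The opposite course was seen in 12 genes. In MRPL49 the 5′-most peak had 6.72 RPM over 4.42 RPM (0.60), and a 375-nt peak further 3′ had 4.24 RPM over 0.70 RPM (2.58). In MRPL55 the ratio was highest in the middle of the gene, at 2.12 in a peak of 0.51 RPM and 2.08 in one of 14.4 RPM over 3.38 RPM, between 1.36 at the start and 1.10 at the end. MRPS5 had 6 peaks, of which a 5316-nt peak in the middle of the gene stood at 7.46 RPM over 1.96 RPM (1.92) and the other 5 at 0.98 or less. Of these 6 peaks 5 list a further identifier, and the first overlaps the second by 358 nt, so part of the sum is counted again.

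MRPL48 had the most peaks, 7, at 0.28 RPM to 6.38 RPM in PRMT5 RIP. Their ratios ran from 0.019 to 1.32, and the gene stood at 0.41. MRPL10, which anchors the stalk, had 5 peaks that all lay between 0.18 and 0.66, an even run along the gene. MRPL46 fell from 1.37 in the first of 4 peaks to 0.18, 0.15 and 0.21, and all of them list a further identifier.

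The 8 peaks below input were spread over 8 genes, MRPL11, MRPL16, MRPL22, MRPL38, MRPS2, MRPS18B, MRPS22 and MRPS24, and the lowest was a 25-nt peak of MRPL11, with 6.74 RPM in RIP and 9.53 RPM in input (-0.50). The first peak of that gene had 117 RPM over 63.1 RPM (0.89), and MRPL11 as a whole stood at 0.77. In each of these genes the other peaks held the sum above input.

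Overlap with the opposite strand touched 29 of 154 MRP peaks (18.8%), close to the 18.1% of all peaks, in 16 genes. In 13 of them every peak was affected. The peak on the other strand often had a like ratio at a lower RPM: MRPS12, for one, had 81.8 RPM over 35.4 RPM (1.21) in its main peak, and SARS2, which encodes a mitochondrial seryl-tRNA synthetase, had 19.4 RPM over 9.39 RPM (1.05) across the whole of it. MRPL53 had 73.5 RPM over 37.4 RPM (0.97) and an unnamed identifier on the other strand 63.9 RPM over 32.7 RPM (0.97). Without such peaks 62 genes remained, with a median of 0.74, and 23 of them at 2 times input.

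A further 5 proteins of the mitochondrial ribosome carry other symbols, and all had a peak. AURKAIP1 and GADD45GIP1 (the large subunit protein also called CRIF1) had 232 RPM over 49.6 RPM (2.22) and 664 RPM over 134 RPM (2.31), ratios that only MRPS34 exceeded among MRP genes with 1 RPM or more in input. CHCHD1 had 37.1 RPM over 13.7 RPM (1.44) and PTCD3 0.59 RPM over 0.14 RPM. DAP3, a GTP-binding protein of the small subunit, had 5 peaks with 38.4 RPM over 32.9 RPM (0.23). These ratios lay within the range of the MRP genes, but mostly high in it. Their median log2 ratio was 2, beside 0.78 for MRP genes and 1.20 for all genes with a peak. The median is the value of PTCD3, which rested on 0.14 RPM in input. At 2 times input or more were 4 of 5 (80%), beside 62.7% of all genes. At 4 times input or more were 3 of 5, PTCD3 among them, beside 3 of 75 MRP genes and 1425 of all 8478 genes with a peak. For GADD45GIP1, 1 of 2 peaks overlaps a peak on the opposite strand.

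Of 18 factors of mitochondrial translation 11 had a named peak, with a median log2 ratio of 1.22 and 6 at 2 times input. For all genes with a peak the median was 1.20, and 62.7% reached 2 times input. Among the translation factors with 1 RPM or more in input, MTFMT, which formylates the initiator methionine, was highest at 3.44 RPM over 1.34 RPM (1.35). It was followed by TACO1, an activator of cytochrome oxidase synthesis (1.23), and OXA1L, the membrane insertase (0.78). TUFM, the elongation factor, had 166 RPM over 124 RPM (0.42), MTRFR stood at 0.57, and MTIF3 was just below input, at 0.97 RPM over 1.0 RPM (-0.044). The 23 of 29 assembly factors with a named peak had a median of 1.00, with 11 at 2 times input. Among those with 1 RPM or more in input, GRSF1, an RNA-binding protein of mitochondrial RNA granules, had 29.96 RPM over 10.4 RPM (1.53), with MALSU1 (1.51) and NOA1 (1.44) next. At the low end of these stood ERAL1, a chaperone of the small subunit rRNA (0.53), DHX30 (0.73) and RBFA (0.73).

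The proteins of the cytosolic ribosome make up the other translation machinery of the cell. Beside them and the nuclear-encoded genes of the respiratory chain, MRP genes lay slightly higher by the ratio of summed RPM. The respiratory chain list also holds ATP synthase genes, those named ATP5. By the caller's log2 fold change the order turned, with medians of 1.53 for MRP, 1.56 for cytosolic and 1.58 for respiratory chain genes. Median summed input was 17.0 RPM for MRP, 784 RPM for cytosolic and 64.3 RPM for respiratory chain genes. The 68 cytosolic ribosomal protein genes with a peak had a median log2 ratio of summed RPM of 0.54, with 18 (26.5%) at 2 times input and 13 below input. The 72 respiratory chain genes had a median of 0.70, with 25 (34.7%) and 7. No MRP gene was below input, where 188 of all 8478 genes with a peak were. At 10 to 100 RPM in input, 65 of 1835 genes were below it. The lists share the same libraries and differ in input level, with no replicate values behind the differences, so none of them was tested.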

How the data were processed

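Reads of 2 PRMT5 RIP and 2 input libraries (NEBNext Ultra Directional kit) were processed by the authors, whose processing notes name fastp, HISAT2 and hg38. The peak caller and the pooling of libraries are not given in the sources used here. The deposited list gives RPM rounded to 0.01, which the authors scaled to library size, and the log2 fold change, p-value and FDR of their peak caller, whose scaling is not stated. Library depth is not given by RPM values, and no interval was computed.

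Peaks were assigned to the first-listed identifier. A symbol came from the study's supplementary table (10 MRP genes) or from the 1 RefSeq gene (GRCh38.p14) on the same strand that every peak of the identifier touched (65, of which 6 had no strand in the table). Log2 ratios used a pseudocount of 0.01 RPM. Start sites came from the promoter table, else from the gene span. Members, lists and motifs were chosen with earlier results of these data known. Genes named were the 10 highest and 10 lowest ratios with 1 RPM or more in input, the 5 largest inputs, those with most peaks, peaks of at least 10 RPM and 4 times input, the MRPS18 paralogs, and 3 at each end of the factor lists; others were named after their values were seen. The scripts were tested on simulated data. Python 3.11.15, pandas 2.3.3, numpy 2.4.6 and scipy 1.17.1 were used.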

Additional observations from a re-analysis of the deposited data

How the results depend on the processing

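No paired analysis was possible because each peak has only pooled values, so the replicate numbers in the labels have no values of their own, and no library could be left out. The medians of MRP peaks and genes stayed above 0 and both differences between classes below 0 under the alternatives, but with a pseudocount of 1 the median of MRP peaks lay above that of all peaks (0.51 against 0.46) and not below it. The count of 75 MRP genes was 62 to 75 under the other filters, and 10 when only identifiers named in the supplementary table were used. The median log2 ratio of the peaks was 0.74 at an FDR of 0.01 or below, 0.70 with at least 0.5 RPM in input, 0.70 without opposite-strand overlaps, 0.78 for peaks of a single identifier (added after the data were seen), 0.71 and 0.51 with pseudocounts of 0.1 and 1, and 1.56 by the caller's log2 fold change. On that scale 81.5% of MRP peaks, and 91.2% of all peaks, were at 1 or more. The median over genes was 0.72 as the median of peak ratios, 1.53 by the caller, 0.77 with at least 1 RPM in input, 0.74 without opposite-strand overlaps and 0.66 with a pseudocount of 1. In the same way, the difference of large minus small subunit was -0.13 from peak ratios, -0.038 with at least 1 RPM, -0.083 without overlaps and -0.14 with a pseudocount of 1, and that of bacterial minus mitochondria-specific genes was -0.17 from peak ratios, -0.13 by the caller, -0.30 without overlaps and -0.13 with a pseudocount of 1. The share of genes with the higher 5′-most peak was 63.6% to 78.4%. The causes were not tested. Low RPM limits peaks such as that of MRPL50, whose log2 ratio of 2.43, the highest of all MRP genes, rests on 0.26 RPM over 0.04 RPM.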
